A study of Mus musculus with 4 samples.

Results

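The nuclear genes for subunits of respiratory complex I were compared between stem cell-enriched bone marrow cells of mice with and without Nol3, the gene of ARC, a protein known as a repressor of cell death. Members were the genes whose only symbol in the platform annotation was an Nduf subunit symbol (Ndufa, Ndufb, Ndufc, Ndufs or Ndufv with a number, or Ndufab1). This rule found 33 genes of 22180 in the array table, on 36 rows, and of the 3 members with several rows the brightest row was used. Assembly factors (Ndufaf genes) were not members. A further 6 rows carried a complex I symbol together with that of another gene and were not given a name. For that reason Ndufb2, Ndufb4 and Ndufs6 were not members.

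Complex I, NADH:ubiquinone oxidoreductase, takes electrons from NADH, passes them along a flavin and a chain of iron-sulfur clusters to ubiquinone, and pumps protons across the inner mitochondrial membrane. It is shaped like an L. A peripheral arm in the matrix carries the redox centres, and a membrane arm carries the proton pumps, with a proximal part next to the peripheral arm and a distal part at the far end. A conserved core does the catalysis, and part of that core is encoded in the mitochondrial genome. The remaining accessory subunits are nuclear-encoded and serve assembly and stability. Quiescent haematopoietic stem cells are known for low mitochondrial respiration, which increases as they divide and differentiate.

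Whole-transcript Affymetrix arrays had been hybridised with RNA of Thy1+ LSK cells, a bone marrow fraction that carries Sca-1 and Kit, lacks lineage markers and is enriched for stem cells. There were 2 arrays of Nol3+/+ mice and 2 of Nol3-/- MPN mice, all on the C57BL/6 background, untreated, and 11 to 18 months old. MPN was read as myeloproliferative neoplasm. The sample labels give it to Nol3-/- mice only, so genotype and disease label cannot be told apart, and the series title may be read as giving it to both groups. The labels used here leave out how many animals went into an array, the kind of Nol3 allele and the sex. P-values therefore measure the spread between these arrays, which may be technical. In bulk samples, fewer cells of a type and less RNA per cell cannot be told apart.

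Values are log2 signals, with array medians from 5.35 to 5.39, and the log base is not stated, so folds assume base 2. Of the arrays, Nol3+/+ replicate 1 stood apart: it correlated with the others at r = 0.899 to 0.911 over tested genes, whereas the other pairs reached 0.929 to 0.949. Nol3 itself read 5.31 and 5.52 in Nol3+/+ arrays and 5.38 and 5.50 in Nol3-/- MPN arrays, and without the deletion's position the row checks nothing. Xist read 5.43 and 5.28 in Nol3+/+ against 10.9 and 10.7 in Nol3-/- MPN. The Y-linked gene Eif2s3y went the other way, with 6.53 and 7.17 against 4.24 and 3.97. Uty and Kdm5d, also Y-linked, were likewise lower on both Nol3-/- MPN arrays. By these genes the Nol3+/+ arrays read as male and the Nol3-/- MPN arrays as female. In the results below, sex therefore cannot be told apart from genotype and disease label. Of the sort markers, Kit read 7.39 to 8.38 over the 4 arrays and Thy1 lay near the limit for dim genes at 4.64 to 5.24. Ly6a, the Sca-1 gene, had no named row. Among listed stem cell markers outside the sort, Cd34 read 8.65 to 8.82 and overlapped between the groups, as did Slamf1. Procr was lower on both Nol3-/- MPN arrays, by -0.27 (limma adjusted p = 0.880). Of 17 listed markers of other blood cells, 12 had a row. Summed on a linear scale, they came to 1147 and 1722 on the Nol3+/+ arrays against 1171 and 1392 on the Nol3-/- MPN arrays, and on each array 1 to 3 of them lay below the limit for dim genes. Some of these markers moved with the groups. The neutrophil genes S100a8 and S100a9 were lower on both Nol3-/- MPN arrays, by -0.86 and -0.83, and the platelet gene Pf4 was higher on both, by 0.59, each at an unadjusted p under 0.05 (limma adjusted p = 0.841). Ly6g, also a myeloid marker, was dim and not tested, and was higher on both, by 0.83. Cd79a and Cd8a were also higher on both, by 0.19 and 0.13, and Cd4 was lower on both, by -0.09. The remaining 5 overlapped between the groups, among them the myeloid markers Mpo, Elane and Itgam with differences of 0.48, 0.07 and 0.11. The part of other cell types in the results below was not tested.

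Most complex I subunit genes had higher signals in Nol3-/- MPN, but none of them passed the test. Of the 33 members, 25 had a higher mean in Nol3-/- MPN and 8 a lower one, with a median log2 difference of 0.26. Over all 22180 genes 50.7% were higher and the median difference was 0.00. In 16 members both Nol3-/- MPN arrays lay above both Nol3+/+ arrays, against 18.8% of all genes, and in 1 member, Ndufv1, both lay below, against 16.4%. The other 16 members overlapped between the groups. The limit for dim genes, the 25th percentile of mean signal at 4.835, left 29 members for testing and removed Ndufs8, Ndufa7, Ndufc1 and Ndufb11.

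None of the 29 tested members passed the limma threshold of 0.05 after Benjamini-Hochberg adjustment over 16635 genes, against 0.024% of all genes, and their adjusted p-values ran from 0.696 to 1. At an unadjusted p under 0.05, 4 members (Ndufa3, Ndufa11, Ndufa9 and Ndufb5) were higher, against 3.73% of all tested genes, and 0 were lower, against 2.07%. These 4 were picked by their p on these same arrays. With each array left out in turn, their differences kept their sign but changed in size. Ndufa3 ran from 1.27 to 1.94, Ndufa11 from 0.51 to 0.79, Ndufa9 from 0.57 to 1.10 and Ndufb5 from 0.45 to 0.91. The median difference of the tested members, 0.27, kept its sign whichever array was left out, between 0.17 and 0.41.

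**Figure D1:**
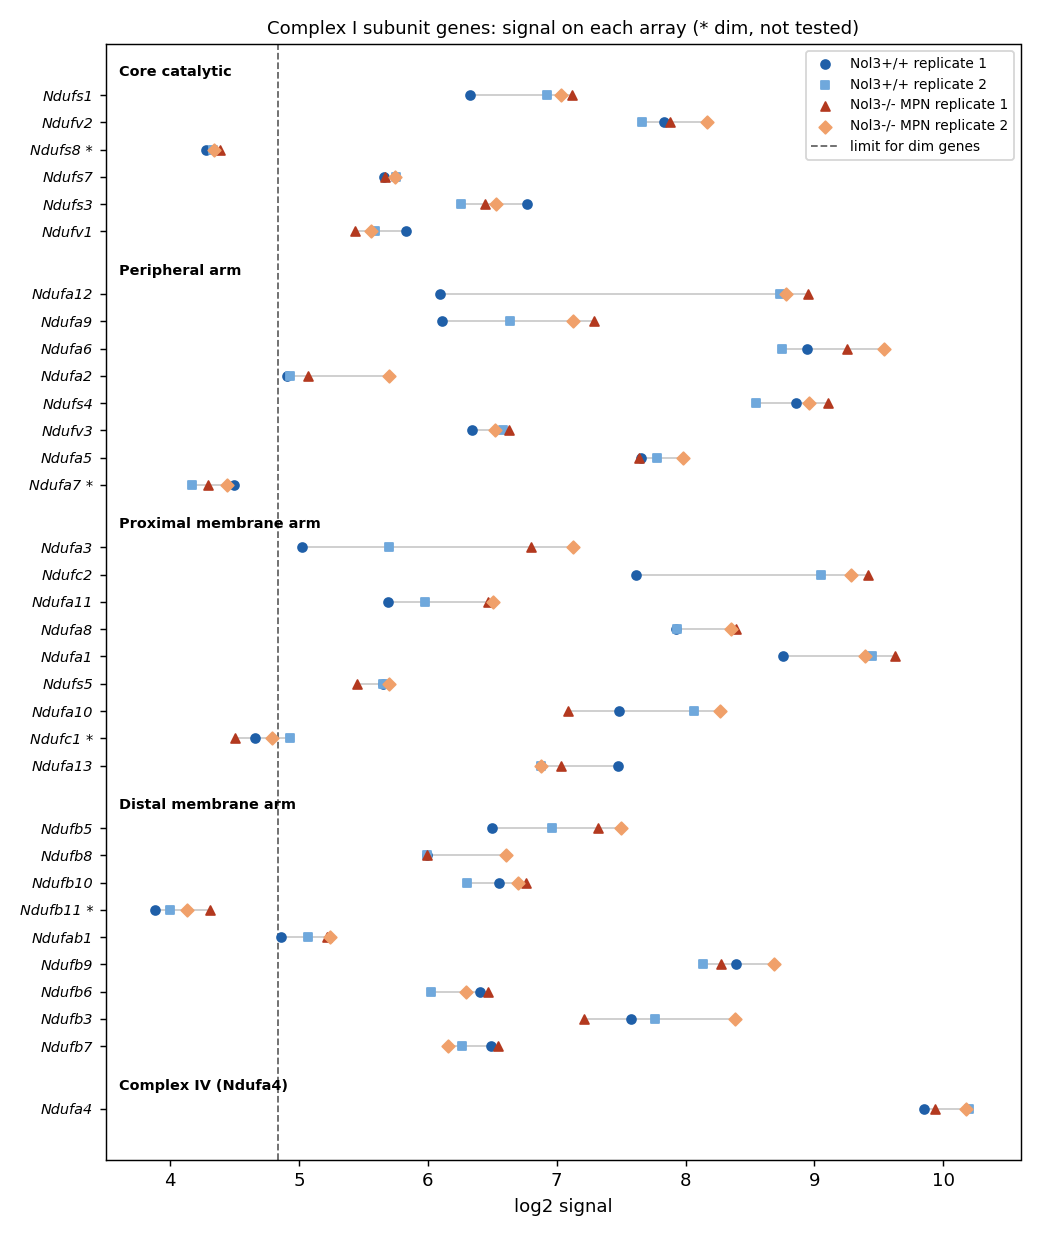
Log2 signal (x axis) of the 33 complex I subunit genes on each of the 4 arrays, grouped by place in the enzyme; circles and squares are Nol3+/+, triangles and diamonds Nol3-/- MPN, grey bars span the arrays, the dashed line is the limit for dim genes at 4.835, and asterisks mark the 4 dim members. Ndufa3 shows the widest clear separation of the groups, while Ndufa12 and Ndufc2 are set apart mainly by a low value on Nol3+/+ replicate 1.

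The core catalytic subunits showed no common direction. Among the nuclear-encoded core genes were 6 members, with 3 higher and 3 lower in Nol3-/- MPN and a median log2 difference of 0.03. Ndufs1, the largest core subunit and a carrier of iron-sulfur clusters, read 6.33 and 6.92 in Nol3+/+ against 7.12 and 7.04 in Nol3-/- MPN. The groups did not overlap, but the gap between the Nol3+/+ arrays, 0.59, was wider than the difference of 0.45 (SE 0.27, limma adjusted p = 0.853). Without Nol3+/+ replicate 1 the difference was 0.15.

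Ndufv2, which carries an iron-sulfur cluster beside the flavin site, read 7.83 and 7.66 on the Nol3+/+ arrays and 7.88 and 8.17 in Nol3-/- MPN. Its groups were separated by a margin smaller than the gap between replicates of either group, with a difference of 0.27 (SE 0.24, limma adjusted p = 0.889). Ndufv1 binds NADH and the flavin, and is the partner of Ndufv2. It read 5.83 and 5.59 in Nol3+/+ against 5.43 and 5.56 in Nol3-/- MPN, a difference of -0.21 (SE 0.15, limma adjusted p = 0.869). These partners thus lay on opposite sides of 0, and the contrast between them was not tested.

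Core subunits nearer to ubiquinone lay close to 0. Ndufs7, which holds the last iron-sulfur cluster before ubiquinone, read 5.66 and 5.76 on the Nol3+/+ arrays and 5.67 and 5.74 in Nol3-/- MPN. The 4 values of Ndufs7 span 0.10 log2 units and the interval of its difference runs from -0.35 to 0.34. Ndufs3, a core subunit of the ubiquinone-reducing part without a redox centre, read 6.77 and 6.26 in Nol3+/+ against 6.44 and 6.53 in Nol3-/- MPN. Its Nol3-/- MPN values lay between those of the Nol3+/+ arrays, with an interval from -0.63 to 0.57. Ndufs8, another iron-sulfur subunit, was dim, at 4.28 and 4.33 on the Nol3+/+ arrays and 4.39 and 4.34 in Nol3-/- MPN, and was not tested.

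All 8 accessory members of the peripheral arm had a higher mean in Nol3-/- MPN. In 5 of them the groups did not overlap, against 18.8% of all genes higher without overlap. Their median log2 difference was 0.40. Ndufa9, a nucleotide-binding subunit at the joint of the arms, read 6.11 and 6.64 in Nol3+/+ against 7.29 and 7.13 in Nol3-/- MPN. The groups of Ndufa9 did not overlap. The margin between them was wider than the gap between the Nol3-/- MPN arrays but narrower than that between the Nol3+/+ arrays, 0.53. The difference was 0.83 (SE 0.25, interval from 0.19 to 1.48, unadjusted p = 0.0205, limma adjusted p = 0.841), a 1.78-fold higher signal. Without Nol3+/+ replicate 1 it was 0.57.

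Ndufa12 had the difference closest in size to that of Ndufa3, at 1.45 (SE 0.85, limma adjusted p = 0.853), and it rested on a single array. It read 6.09 and 8.74 on the Nol3+/+ arrays and 8.95 and 8.78 in Nol3-/- MPN. Only Nol3+/+ replicate 1 was low, and without it the difference was 0.13. The other row of this gene read 6.61 and 7.88 in Nol3+/+ against 7.98 and 7.59 in Nol3-/- MPN, where replicate 1 was again the low array and the groups overlapped. Ndufa12 takes the place of its paralogue, the assembly factor Ndufaf2, in the finished enzyme, and Ndufaf2 showed the same low array, with 5.99 and 7.34 in Nol3+/+ against 7.40 and 7.17 in Nol3-/- MPN.

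Ndufa6, an LYR-motif protein that binds the acyl carrier protein, read 8.94 and 8.75 on the Nol3+/+ arrays and 9.25 and 9.54 in Nol3-/- MPN. The difference of 0.55 (SE 0.22, limma adjusted p = 0.841) did not hang on Nol3+/+ replicate 1, and was 0.64 without it. Ndufs4, a subunit whose loss in mice causes a disease like Leigh syndrome, read 8.86 and 8.54 against 9.10 and 8.96, a difference of 0.33 (SE 0.23, limma adjusted p = 0.867). Ndufa2, which has a thioredoxin-like fold, read 4.91 and 4.93 against 5.07 and 5.70. Here Nol3-/- MPN replicate 2 was the high array, and the difference of 0.47 was 0.15 without it. Ndufv3 and Ndufa5 overlapped between the groups with differences of 0.12 and 0.10, and the dim Ndufa7 differed by 0.04. The sign of each of these 3 turned when 1 array was left out.

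The proximal membrane arm held the largest difference of all members, that of Ndufa3, and 4 of the 8 lower ones. Of its 9 members, 5 were higher and 4 lower in Nol3-/- MPN, and the median was 0.40. Without overlap 4 were higher, against 18.8% of all genes. Ndufa3, a small subunit with a membrane-spanning helix, read 5.02 and 5.70 in Nol3+/+ against 6.80 and 7.13 in Nol3-/- MPN. The lowest Nol3-/- MPN value was above the highest Nol3+/+ value by more than the gap between replicates of either group. The difference was 1.60 (SE 0.28, interval from 0.89 to 2.32, unadjusted p = 0.0020, limma adjusted p = 0.696), a 3.04-fold higher signal. Leaving out each array in turn gave 1.27 to 1.94.

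Ndufa11, a membrane subunit that contacts complex III in supercomplexes, read 5.69 and 5.98 on the Nol3+/+ arrays and 6.47 and 6.51 in Nol3-/- MPN, a difference of 0.65 (SE 0.18, unadjusted p = 0.0141, limma adjusted p = 0.841). Its other, dimmer row pointed the opposite way, with 5.75 and 5.57 in Nol3+/+ against 5.41 and 5.35 in Nol3-/- MPN, a difference of -0.28. The direction of Ndufa11 therefore depends on the row. Ndufa8, a subunit on the intermembrane-space side, read 7.92 and 7.93 on the Nol3+/+ arrays and 8.39 and 8.35 in Nol3-/- MPN. Its replicates agreed within 0.04 log2 units in both groups and the difference was 0.44 (SE 0.21, limma adjusted p = 0.841), while its dimmer row overlapped with a difference of 0.10.

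Ndufc2, a membrane subunit, read 7.62 and 9.05 in Nol3+/+ against 9.41 and 9.29 in Nol3-/- MPN. As with Ndufa12 the low array was Nol3+/+ replicate 1, and the difference of 1.01 (SE 0.49, limma adjusted p = 0.841) was 0.30 without it. Ndufa1, an X-linked subunit needed for assembly, read 8.76 and 9.45 on the Nol3+/+ arrays and 9.62 and 9.39 in Nol3-/- MPN. Its groups overlapped, the difference was 0.40 (SE 0.29, limma adjusted p = 0.869), and without Nol3+/+ replicate 1 it was 0.06.

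The lower members of the proximal arm differed by little against their spread. Ndufa10, related to nucleoside kinases, read 7.49 and 8.07 in Nol3+/+ against 7.09 and 8.27 in Nol3-/- MPN, with both extremes in the Nol3-/- MPN group. Its difference was -0.10, with an interval from -1.27 to 1.07. Ndufa13, also known as Grim19 and linked to cell death, differed by -0.22 with Nol3+/+ replicate 1 as the high array, and by 0.08 without it. Ndufs5 and the dim Ndufc1 differed by -0.08 and -0.15.

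**Figure D2:**
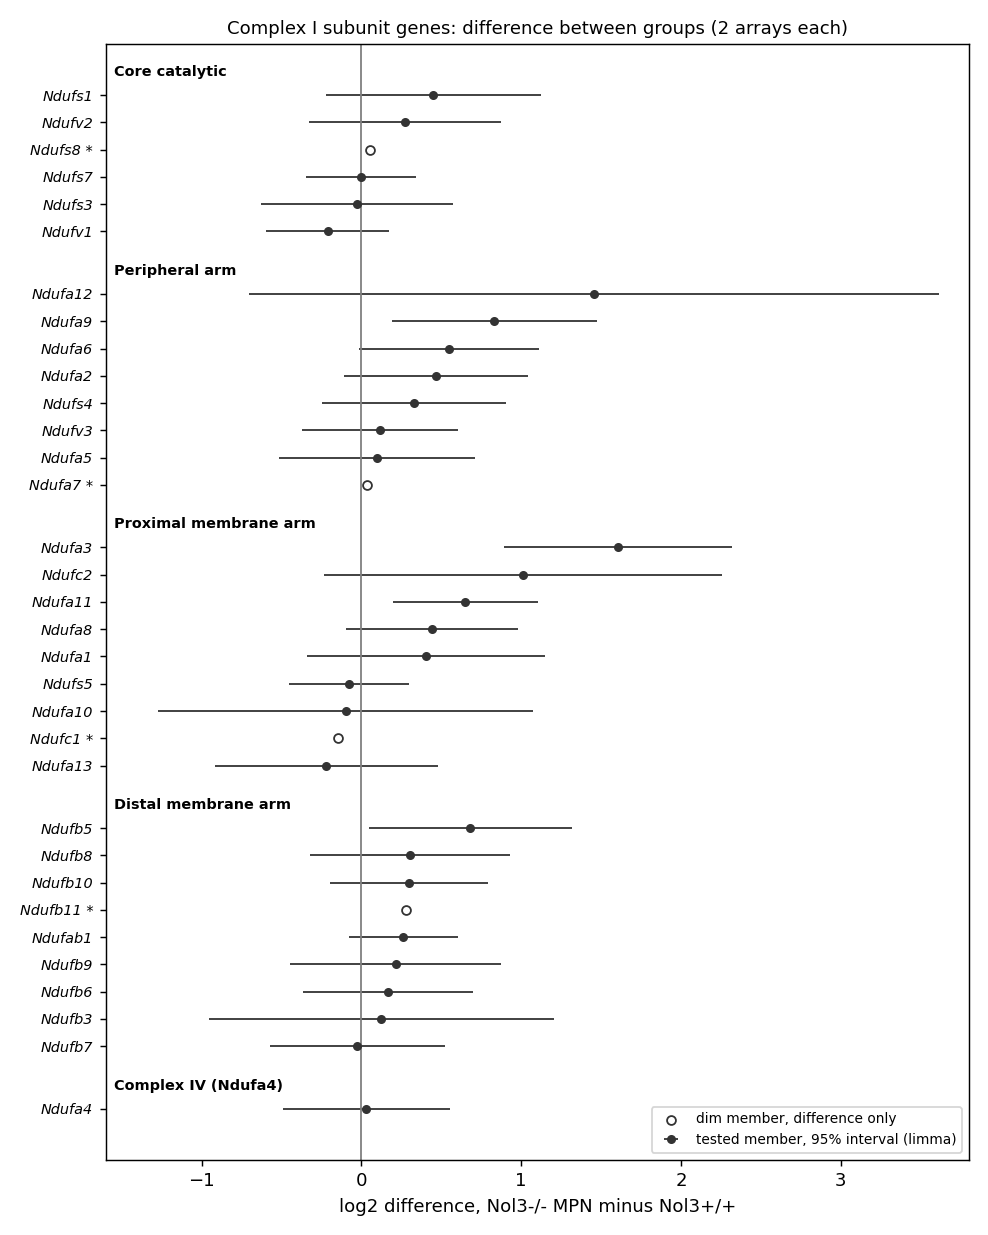
Log2 difference between Nol3-/- MPN and Nol3+/+ (x axis) for the 33 members, with the 95% interval from limma for the 29 tested ones (filled) and without one for the 4 dim ones (open), n = 2 arrays per group. Most points lie right of 0, and only the intervals of Ndufa3, Ndufa11, Ndufa9 and Ndufb5 leave out 0 before adjustment.

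In the distal membrane arm 8 of 9 members were higher in Nol3-/- MPN, 4 of them without overlap, against 18.8% of all genes. The median log2 difference of this arm was 0.26. Ndufb5, a membrane subunit, read 6.50 and 6.96 on the Nol3+/+ arrays and 7.32 and 7.499 in Nol3-/- MPN. Both Nol3-/- MPN arrays were above both Nol3+/+ arrays, with a difference of 0.68 (SE 0.25, interval from 0.04 to 1.32, unadjusted p = 0.0401, limma adjusted p = 0.841), and without Nol3+/+ replicate 1 it was 0.45. Ndufb10, a subunit facing the intermembrane space, read 6.55 and 6.31 against 6.76 and 6.70, a difference of 0.30 (SE 0.19, limma adjusted p = 0.863).

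Ndufab1 is the mitochondrial acyl carrier protein, which also serves fatty acid and iron-sulfur cluster synthesis. It read 4.86 and 5.07 in Nol3+/+ against 5.21 and 5.24 in Nol3-/- MPN, a difference of 0.26 (SE 0.13, limma adjusted p = 0.841), and these signals lie close to the limit for dim genes. Ndufb11, the other X-linked member, was dim, at 3.88 and 3.996 against 4.31 and 4.13. Without the X-linked Ndufa1 and Ndufb11, 23 of 31 members were higher and the median was 0.21.

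The remaining distal members overlapped between the groups. Ndufb3 had a wide gap between the Nol3-/- MPN arrays, with 7.58 and 7.76 on the Nol3+/+ arrays and 7.21 and 8.38 in Nol3-/- MPN, and its difference of 0.13 turned to -0.46 without Nol3-/- MPN replicate 2. Ndufb8 read 5.99 and 6.00 in Nol3+/+ against 5.99 and 6.61 in Nol3-/- MPN, so that a single Nol3-/- MPN array made its difference of 0.31. Ndufb9, Ndufb6 and Ndufb7 differed by 0.21, 0.17 and -0.03. Ndufa4, matched by its symbol but now placed in complex IV, read 9.85 and 10.2 on the Nol3+/+ arrays and 9.93 and 10.2 in Nol3-/- MPN, a difference of 0.03. Without Ndufa4, 24 of 32 members were higher and the median was 0.27.

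Set against each other array by array, the members were higher on each Nol3-/- MPN array than on each Nol3+/+ array. Against Nol3+/+ replicate 1, 22 of 33 members were higher on Nol3-/- MPN replicate 1 and 27 on replicate 2, with medians of 0.10 and 0.33. Against Nol3+/+ replicate 2 the counts were 24 and 26, with medians of 0.17 and 0.23. Over all genes these shares were 46.3% and 52.6%, then 49.4% and 56.6%, with medians between -0.03 and 0.04. Replicates of a group also differed: 21 of 33 members were higher on Nol3+/+ replicate 2 than on replicate 1 (median 0.10), and 19 on Nol3-/- MPN replicate 2 than on replicate 1 (median 0.07). The median of the smallest between-group pair was therefore about as wide as that of the Nol3+/+ replicates.

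Nol3+/+ replicates 1 and 2 were the lowest array for 16 and 9 of 33 members, against 27.9% and 25.6% of all genes. Nol3-/- MPN replicates 1 and 2 were the lowest for 7 and 1, against 28.9% and 17.6%. The highest array was Nol3-/- MPN replicate 1 or 2 for 13 and 13 members, against 22.0% and 27.1%. It was Nol3+/+ replicate 1 or 2 for 4 and 3, against 31.0% and 19.9%. Over the members the median size was 0.26 for the group difference, 0.26 for the Nol3+/+ replicate gap and 0.17 for the Nol3-/- MPN replicate gap. The group difference is between means of 2 arrays and a gap is between 2 single arrays, so these are not the same measure.

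Signal strength moved with this result and its part was not tested. Both Nol3-/- MPN arrays lay above both Nol3+/+ arrays for 16.7% of all genes with a mean log2 signal under 6, for 20.6% between 6 and 7, for 26.6% between 7 and 8, for 31.3% between 8 and 9 and for 31.2% from 9 upward. In the same bands 4 of 9, 5 of 10, 2 of 6, 4 of 5 and 1 of 3 members did so.

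**Figure D3:**
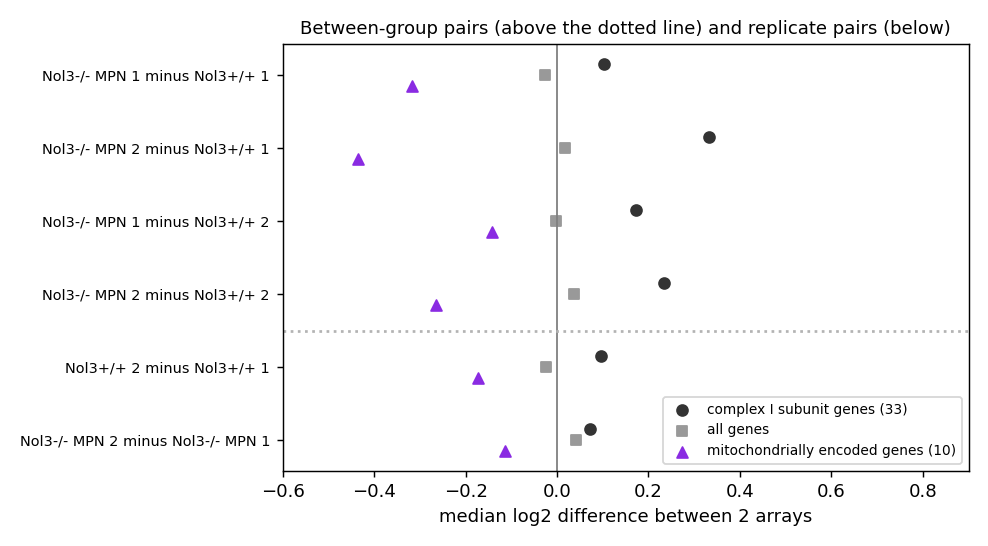
Median log2 difference between 2 arrays (x axis) for the 33 complex I subunit genes (circles), all 22180 genes (squares) and 10 mitochondrially encoded genes (triangles), for the 4 pairs of a Nol3-/- MPN with a Nol3+/+ array and, under the dotted line, the replicate pair of each group. The subunit genes lie above 0 and the mitochondrially encoded genes below 0 in every pair shown, the replicate pairs included.

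The complex I subunits encoded in the mitochondrial genome went the opposite way from most nuclear ones, again without passing the test. All 7 of them (ND1, ND2, ND3, ND4, ND4L, ND5 and ND6) lay lower on both Nol3-/- MPN arrays than on both Nol3+/+ arrays, against 16.4% of all genes, with a median log2 difference of -0.29. Of 50 nuclear genes as bright, with a mean signal of 11 or more, 16% lay lower on both arrays. These genes form the proton-pumping core of the membrane arm and the site next to ubiquinone. They are copied from the mitochondrial genome as long shared transcripts, so their rows are not independent, and nuclear copies of mitochondrial sequence may add to their signal.

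ND1, which helps to form the ubiquinone channel, read 12.0 and 11.8 in Nol3+/+ against 11.6 and 11.5 in Nol3-/- MPN, a difference of -0.43 (SE 0.11, unadjusted p = 0.0126, limma adjusted p = 0.841). ND2, a proton-pumping subunit, read 11.7 and 11.4 against 11.1 and 11.0, a difference of -0.46 (SE 0.15, limma adjusted p = 0.841). ND5, the pump at the far end of the membrane arm, read 12.3 and 12.2 against 12.0 and 11.9, a difference of -0.29 (SE 0.09, limma adjusted p = 0.841). In these 3 genes the lower Nol3+/+ array still lay above the higher Nol3-/- MPN array. They were the only mitochondrially encoded complex I subunits with an unadjusted p under 0.05, against 2.07% of all tested genes lower at that threshold. The differences of ND4L, ND6, ND4 and ND3 were -0.35, -0.26, -0.25 and -0.16.

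The other named mitochondrial genes lay lower as well: COX1 and COX3, of complex IV, differed by -0.32 and -0.24 and CYTB, of complex III, by -0.20. Over all 10 mitochondrial genes the medians of the 4 pairs of a Nol3-/- MPN with a Nol3+/+ array ran from -0.44 to -0.14. The replicates of a group differed too: 10 of 10 were lower on Nol3+/+ replicate 2 than on replicate 1, with a median of -0.17, wider than the smallest of those 4 values. With an array left out, the difference of ND1 ran from -0.53 to -0.33. That of ND2 ran from -0.61 to -0.31, that of ND5 from -0.35 to -0.23 and that of ND6 from -0.41 to -0.11. After quantile normalization the median of the 7 subunits was -0.19, with all 7 still below 0.

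**Figure D4:**
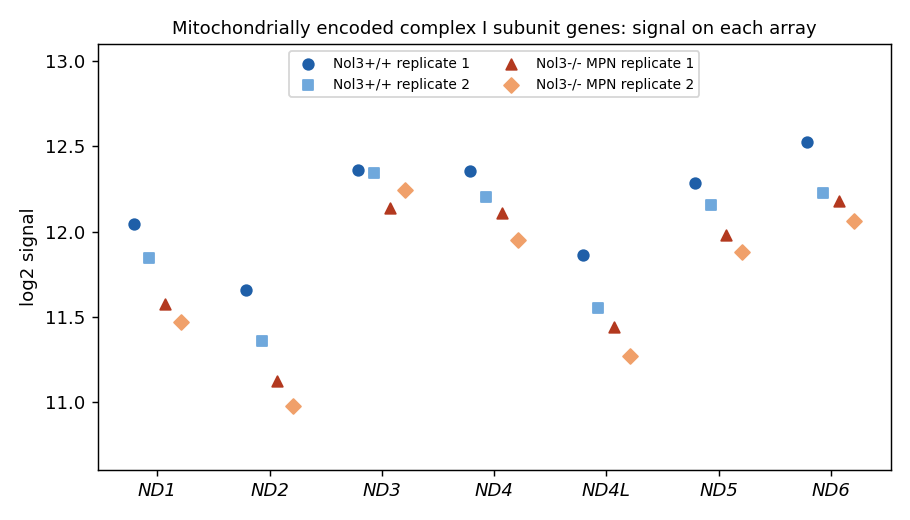
Log2 signal (y axis, not from 0) of the 7 mitochondrially encoded complex I subunit genes on each array. For each gene both Nol3+/+ arrays (circles, squares) lie above both Nol3-/- MPN arrays (triangles, diamonds), most narrowly for ND6, at 12.23 against 12.18.

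Most genes that build complex I without being part of it also had a higher mean in Nol3-/- MPN. Of 16 assembly factors with a row, 13 were higher and 3 lower, against 50.7% of all genes higher, with a median log2 difference of 0.15. Only 3 of the 16 were higher without overlap, a share near the 18.8% of all genes. None of the 15 tested passed the limma threshold (adjusted p of at least 0.841), and 1 was higher at an unadjusted p under 0.05, against 3.73% of all tested genes. This was Tmem126b, which helps to assemble the membrane arm, with 5.07 and 5.21 on the Nol3+/+ arrays and 6.05 and 5.50 in Nol3-/- MPN, a difference of 0.63. Nubpl, an iron-sulfur cluster factor of complex I, read 5.24 and 6.58 in Nol3+/+ against 6.95 and 6.46 in Nol3-/- MPN. Its difference of 0.79 came with a low Nol3+/+ replicate 1. Ndufaf1 read 5.37 and 6.03 against 6.11 and 5.97, with the same low array and a difference of 0.34.

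Of 34 tested subunits of the other respiratory complexes, II to V, 25 had a higher and 9 a lower mean in Nol3-/- MPN, against 51.7% of all tested genes higher, with a median of 0.21. None passed the limma threshold (adjusted p of at least 0.841), and an unadjusted p under 0.05 was reached by 5 with a higher and 1 with a lower mean, against 3.73% and 2.07% of all tested genes. The smallest p-values were those of Cox4i1, Atp5g2 and Sdhc. Cox4i1, of complex IV, read 5.83 and 7.18 in Nol3+/+ against 8.20 and 8.25 in Nol3-/- MPN. Atp5g2, of complex V, read 8.02 and 8.28 against 8.85 and 9.38, and Sdhc, of complex II, 5.52 and 6.23 against 6.68 and 7.02. In these 3 genes the groups did not overlap, with differences of 1.73, 0.97 and 0.98. Nol3+/+ replicate 1 was the low array for Cox4i1, and without it the difference of Cox4i1 was 1.05. Over the 36 subunits with a row, 12 were higher and 2 lower without overlap, against 18.8% and 16.4% of all genes. Nuclear regulators of mitochondrial genes stood near 0: of 10 tested, 6 were higher and 4 lower, with a median of 0.04. Nrf1, Gabpa and Yy1, whose factors bind promoters of respiratory chain genes, differed by 0.14, 0.39 and -0.06, and the sign of each turned when 1 array was left out. Tfam and Polrmt, which transcribe the mitochondrial genome, differed by 0.15 and -0.19. None passed the limma threshold (adjusted p of at least 0.889) and 0 had an unadjusted p under 0.05.

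Promoters of the members were searched, on both strands, for letters bound by factors known for respiratory chain genes, in RefSeq windows of assembly GRCm38.p6 from 250 bases before to 50 after the annotated start. Of the 33 members, 30 had a window. A member was counted if any of its windows held the letters, while the background counts windows, so these shares are not the same measure. The NRF1 letters GCGCATGCG were in 2 of the 30 members (6.67%) and in 1.75% of all 32851 windows. The YY1 letters AAGATGGCG were in 4 (13.3%) and in 1.40% of all windows, the GABP letters CCGGAAG in 4 (13.3%) and in 8.86%, and the Sp letters GGGCGG in 14 (46.7%) and in 35.7%. A match is a description of these letters and not a bound site.

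The NRF1 letters were in Ndufa11 and Ndufa8, whose brighter rows were both higher in Nol3-/- MPN, and the YY1 letters in Ndufa9, Ndufs4, Ndufs7 and Ndufc1. Stretches of 5 promoters are shown, those of Ndufa3 for its difference and the others for these letters, 5′ to 3′ on the strand of the gene, with the matched letters or their reverse complement in capitals. In Ndufa11 the capitals hold the NRF1 letters on both strands, overlapping.
Ndufa3 (chr7:3617253-3617372, plus strand, Sp): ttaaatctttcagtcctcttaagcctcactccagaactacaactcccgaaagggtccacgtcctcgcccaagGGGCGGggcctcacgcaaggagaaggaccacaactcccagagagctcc
Ndufa11 (chr17:56717662-56717751, plus strand, NRF1): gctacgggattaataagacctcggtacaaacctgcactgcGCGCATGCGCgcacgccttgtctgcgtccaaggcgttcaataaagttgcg
Ndufa8 (chr2:36049339-36049387, minus strand, NRF1): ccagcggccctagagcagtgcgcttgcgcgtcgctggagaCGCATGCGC
Ndufa9 (chr6:126849097-126849125, minus strand, YY1): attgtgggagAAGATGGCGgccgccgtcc
Ndufs4 (chr13:114388045-114388069, minus strand, YY1): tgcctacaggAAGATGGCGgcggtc

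The stretches of Ndufa3, Ndufa11 and Ndufa8 lie before the annotated start and those of Ndufa9 and Ndufs4 just after it. Genes with the same letters did not share a size of difference: of those with the YY1 letters, Ndufa9 differed by 0.83, Ndufs4 by 0.33, Ndufs7 by 0.00 and the dim Ndufc1 by -0.15.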

How the data were processed

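The authors deposited 1 table of normalized log2 array signals (41345 rows, 4 arrays). The submitters' processing notes name Affymetrix Expression Console and the Transcriptome Analysis Console, and which background correction and normalization were run is not given in the sources used here. Scale was read from the values (2.84 to 13.5). Per the labels' protocols, RNA was amplified by single-primer isothermal amplification. Rows were named through the platform annotation: 23521 rows had 1 symbol, 1814 several, and the rest are unnamed here. Of several rows of a gene the brightest was used. The group difference was fitted in limma 3.58.1, run under R 4.3.3 (lmFit, eBayes with a variance trend, 2 residual and 3.19 prior degrees of freedom), tested on simulated data. P-values were adjusted by Benjamini-Hochberg over 16635 genes. SE is limma's, intervals are 95% intervals. With no detection call in use, a low signal may be background, and having only 4 arrays limits precision.

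Values in every array are given for core, X-linked and non-overlapping members and for the 3 with the widest replicate gap in either group, and for the 3 genes with the smallest p of the lists of mitochondrially encoded subunits, assembly factors and complexes II to V (taken as 1 list); of the regulators differences alone are given, and other members and genes shown were added as examples. The members and lists were chosen with earlier results of these data known. The sample labels do not say whether replicate numbers pair the arrays, and the main fit treats the arrays as unpaired. The correlation of same-numbered deviations was 0.05, and with 2 arrays per group it cannot decide this. Alternatives were leaving out each array, a replicate block, quantile normalization, other variance models, array weights, other limits for dim genes, the mean of a gene's rows, and leaving out X- and Y-linked genes.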

Additional observations from a re-analysis of the deposited data

How the results depend on the processing

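The number of members past the adjusted threshold was 0 in each alternative run, and the median difference of the tested members stayed above 0, from 0.17 to 0.41 with an array left out. Leaving out each array moved the count of members higher at an unadjusted p under 0.05 from 4 to between 1 and 8, while the count with a higher mean ran from 19 to 26. With the replicate block the median was 0.27 and 22 members were higher, no member passed and 4 were higher at an unadjusted p under 0.05. Whether the numbers pair these arrays is not known. With an array left out the sign turned for 13 of 33 members, 12 of them tested and none called. The tested ones ranged from -0.69 to 0.49 for Ndufa10, -0.52 to 0.079 for Ndufa13, -0.145 to 0.21 for Ndufa4, -0.075 to 0.27 for Ndufa5, -0.46 to 0.71 for Ndufb3, -0.025 to 0.36 for Ndufb6, -0.22 to 0.17 for Ndufb7, -0.0020 to 0.62 for Ndufb8, -0.28 to 0.225 for Ndufs3, -0.20 to 0.047 for Ndufs5, -0.048 to 0.047 for Ndufs7 and -0.0030 to 0.24 for Ndufv3. Ndufs7 was also 0.0084 after quantile normalization. Outside the members, Ndufaf2 ranged from -0.057 to 1.29, Gabpa from -0.023 to 0.79, Nrf1 from -0.028 to 0.31 and Yy1 from -0.14 to 0.022. With an array left out 1 group has a lone array, assumed to vary like the other group. The means of 2 arrays and the unknown background limit what dim members can show.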
